A study of Mus musculus with 21 samples.

Results

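Interferon-gamma is the cytokine through which T cells and natural killer (NK) cells activate macrophages and other tissue cells, and 9 genes of its axis were followed here in mouse skin. They were taken by symbol: the cytokine Ifng, its receptor chain Ifngr1, the transcription factor Irf1, the feedback inhibitor Socs1, the chemokines Cxcl9, Cxcl10 and Cxcl11, their receptor Cxcr3, and the chemokine Ccl5. The count table lists 64050 symbols, among them all 9, and all 9 passed the filter on low counts that left 20462 genes for testing. The RNA came from skin of BALB/c mice that were 8 weeks old when irradiated with 700 cGy and given bone marrow. With allogeneic marrow this transplantation models the sclerodermatous (skin-hardening) chronic form of graft-versus-host disease, an attack of donor immune cells on the recipient.

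The groups differed in donor and treatment. Allogeneic recipients of B10.D2 marrow were treated with mCAN10, an antibody to the interleukin-1 receptor accessory protein IL1RAP (4 libraries, called anti-IL1RAP skin). They were set against allogeneic recipients given the isotype antibody mIgG2a LALA-PG (4 libraries) and against syngeneic recipients, which had marrow of their own BALB/c strain and the same isotype antibody (4 libraries). Further allogeneic recipients received nintedanib (5 libraries), a drug that blocks receptor kinases of several growth factors, and were set against allogeneic recipients given water (4 libraries). The treatments started on day 21 and the skin dates from week 7, with antibodies injected at 20 mg/kg first and 10 mg/kg later. The protocol gives nintedanib as 50 mg/kg by mouth each day, whereas the design text speaks of injections throughout, and the route is therefore not certain. IL1RAP is a co-receptor that the receptors of several IL-1 family cytokines share.

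Interferon-gamma binds a receptor made of Ifngr1 and Ifngr2 chains, and the kinases Jak1 and Jak2 start a signal that ends at DNA elements called GAS. Irf1, an early target, codes for a factor that binds interferon-stimulated response elements (ISRE), and Socs1 inhibits the Jak kinases again. Cxcl9, Cxcl10 and Cxcl11 attract activated T cells and NK cells through Cxcr3, and Ccl5 attracts T cells and monocytes through CC chemokine receptors such as Ccr1.

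Promoters are shown first because several of these genes are known to be switched on through GAS or ISRE sites. RefSeq promoter entries (build GRCm38.p6) matched 7 of the 9 symbols, without Ccl5 and Cxcl11. The 250 bases before each start were searched on both strands for GAS (TTCNNNGAA), the ISRE core (GAAA, any 2 bases, GAAA) and the NF-kB consensus, since IL-1 family receptors signal through NF-kB. Among 32851 promoters, 7.02% held a GAS match, 2.98% an ISRE core and 7.25% an NF-kB match. The 3 promoters below hold an ISRE core or both other motifs. Irf1 (chr11:53769764-53770013, plus strand) held a GAS at -90 to -82 and an NF-kB match at -13 to -4, counted back from the start of the gene. Socs1 (chr16:10785537-10785786, minus strand) held a pair of overlapping ISRE cores from -83 to -68. Cxcl10 (chr5:92348890-92349139, minus strand) held an ISRE core at -213 to -204, an NF-kB match at -159 to -150 and an overlapping pair of them from -104 to -94. Capitals mark the matches.
Irf1: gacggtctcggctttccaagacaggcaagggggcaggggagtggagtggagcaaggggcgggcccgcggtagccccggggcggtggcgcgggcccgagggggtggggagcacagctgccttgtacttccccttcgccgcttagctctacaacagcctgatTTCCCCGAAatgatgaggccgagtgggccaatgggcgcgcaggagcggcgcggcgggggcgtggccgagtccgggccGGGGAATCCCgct
Socs1: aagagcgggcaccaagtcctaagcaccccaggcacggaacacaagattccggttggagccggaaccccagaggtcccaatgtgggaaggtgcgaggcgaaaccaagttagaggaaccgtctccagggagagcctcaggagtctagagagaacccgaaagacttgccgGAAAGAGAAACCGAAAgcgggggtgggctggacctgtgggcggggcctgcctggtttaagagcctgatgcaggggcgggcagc
Cxcl10: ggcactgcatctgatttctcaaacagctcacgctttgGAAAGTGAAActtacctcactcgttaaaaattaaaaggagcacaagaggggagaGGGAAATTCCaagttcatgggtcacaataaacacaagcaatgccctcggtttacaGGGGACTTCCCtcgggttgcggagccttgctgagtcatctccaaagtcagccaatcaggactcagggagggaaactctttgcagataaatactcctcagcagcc
Ifng held a GAS at -249 to -241, and none of these letters stood in the windows of Cxcl9, Ifngr1 and Cxcr3. A match describes letters and does not show binding.

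The libraries held 17130264 to 32899212 counts. Anti-IL1RAP and both isotype groups were counted in a first run and nintedanib and water groups in a second run with partly different gene names, so levels are compared within a run only. Replicates are numbered as in the sample titles, and anti-IL1RAP replicates 2, 3 and 4 carry the numbers 3, 4 and 5 in the deposited columns. Keratinocyte markers (a sum of 5845 to 74086 CPM, counts scaled to library size) and fibroblast markers (827 to 10294 CPM) were present in every library, as in skin. In nintedanib replicates 1 and 3 the 17 hair follicle markers summed to 62412 and 22574 CPM, against at most 647 CPM in any other library. The 4 Y-linked genes were at 0 in the allogeneic isotype and water libraries, but had counts in every syngeneic library, in anti-IL1RAP replicate 2 and in nintedanib replicates 2 and 4. No label states the sex of the mice. Levels below are CPM scaled with TMM factors, and fold changes are log2 values ± SE from edgeR's quasi-likelihood test. A gene is said to have risen or fallen where the Benjamini-Hochberg adjusted p over the 20462 genes was under 0.05.

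**Figure D1:**
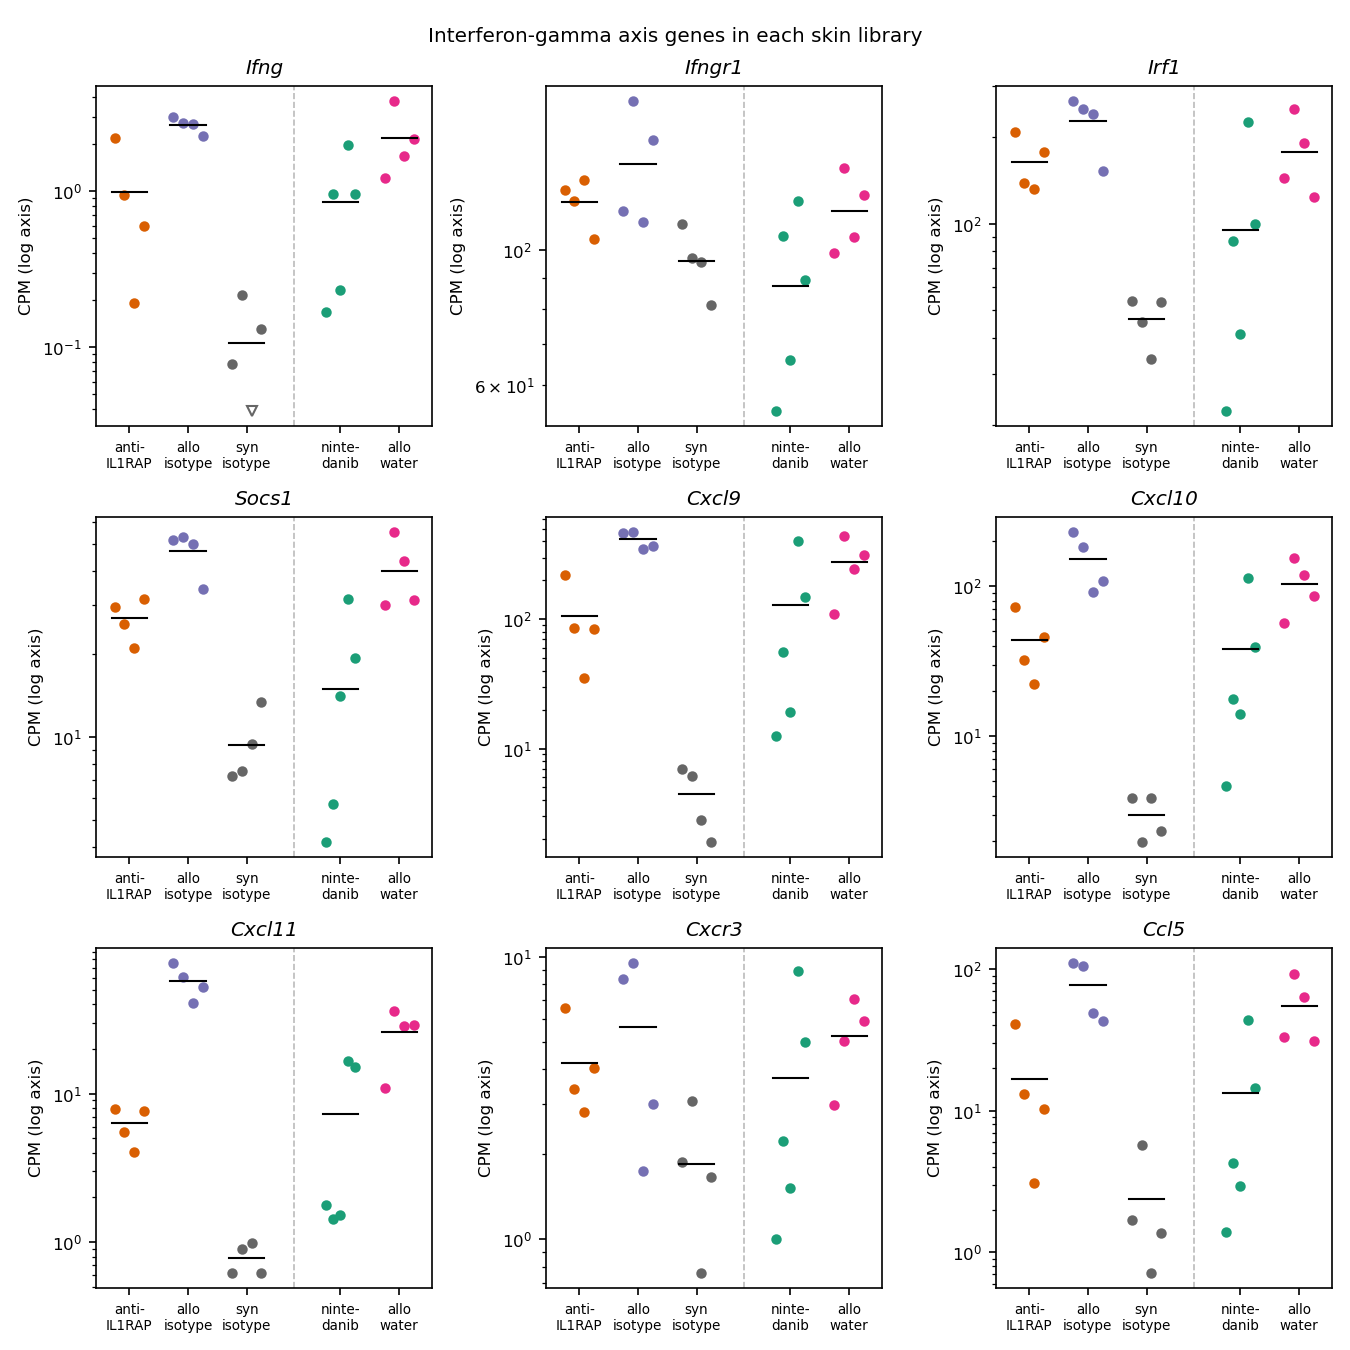
Level of each of the 9 genes in every library (CPM, log axes of different ranges), with the group mean as a bar and an open triangle for the syngeneic library with 0 Ifng counts. The dashed line parts the counting runs, across which levels are not compared; for Ifng, Socs1, Cxcl9, Cxcl10, Cxcl11 and Ccl5 all 4 anti-IL1RAP libraries lie below all 4 allogeneic isotype libraries.

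The first comparison asked how skin of allogeneic recipients differed from skin of syngeneic recipients, both under isotype antibody. The axis was higher in allogeneic skin, where 7 of the 9 genes rose. The share of all tested genes that rose was 13.8%, and the median log2 fold change was 4.57 over the 9 genes and 0 over all genes. The CXCR3 chemokines had the largest fold changes, 6.54 for Cxcl9, 6.19 for Cxcl11 and 5.67 for Cxcl10. The groups did not overlap for 8 genes, all but Cxcr3, while 16.8% of all genes were higher without overlap. Donor strain, disease and the presence of Y-linked counts part the same groups and cannot be told apart.

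Ifng had 65, 53, 56 and 36 counts (2.98, 2.76, 2.71 and 2.25 CPM) in the allogeneic isotype libraries, against 2, 5, 0 and 4 counts in the syngeneic ones, where a count of 0 allows up to 3. Every allogeneic library was above every syngeneic one, with a log2 fold change of 4.57 ± 0.83 (edgeR adjusted p = 0.000884). The receptor chain Ifngr1 had 116, 176, 111 and 152 CPM in allogeneic isotype skin, against 110, 97.1, 95.5 and 81.1 CPM in syngeneic skin. The groups were barely parted, and the fold change of 0.53 ± 0.21 did not pass (edgeR adjusted p = 0.0754). Cxcr3 had 8.35, 9.46, 1.74 and 3.00 CPM against 1.87, 3.09, 0.761 and 1.67 CPM, and its 1.61 ± 0.63 did not pass (edgeR adjusted p = 0.0723). Allogeneic replicates 1 and 2 were high for Cxcr3 and replicates 3 and 4 lay at the level of syngeneic skin. Both receptors passed in a fit of the first run alone (edgeR adjusted p = 0.0295 for Ifngr1 and 0.0447 for Cxcr3) and without allogeneic isotype replicate 3 (0.0483 and 0.0339), and Cxcr3 also with DESeq2 (0.0341). Over all genes 3591 rose with the first run alone, 2840 without that replicate and 3176 with DESeq2, against 2821 with edgeR on all libraries.

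Cxcl9 had 466, 469, 351 and 371 CPM in allogeneic isotype skin, against 6.91, 6.18, 2.82 and 1.90 CPM in syngeneic skin (6.54 ± 1.01, edgeR adjusted p = 0.000249). Cxcl10 had 228, 182, 91.8 and 109 CPM against 3.86, 1.97, 3.85 and 2.32 CPM (5.67 ± 0.80, edgeR adjusted p = 0.000125). Both chemokines were detected in every syngeneic library, and the groups lay far apart without overlap. Cxcl11 had 75.1, 61.0, 40.9 and 52.3 CPM against 0.624, 0.901, 0.985 and 0.621 CPM (6.19 ± 0.80, edgeR adjusted p = 7.66e-05). Ccl5 had 109, 105, 48.8 and 43.2 CPM against 1.68, 5.70, 0.716 and 1.37 CPM (5.02 ± 1.04, edgeR adjusted p = 0.0022). Allogeneic replicates 1 and 2 were above replicates 3 and 4 for Cxcl10, Cxcl11 and Ccl5, as for Cxcr3.

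The intracellular members rose by less. Irf1 averaged 227 ± 50.7 CPM in allogeneic isotype and 46.6 ± 9.36 CPM in syngeneic skin (SD, n = 4 each), a log2 fold change of 2.28 ± 0.48 (edgeR adjusted p = 0.00242). Socs1 averaged 47.2 ± 8.75 CPM in allogeneic isotype and 9.39 ± 2.83 CPM in syngeneic skin (SD, n = 4 each), a log2 fold change of 2.33 ± 0.45 (edgeR adjusted p = 0.00133). The groups did not overlap for either gene.

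Of 12 further genes of the receptor pathway 9 rose and 0 fell, with a median log2 fold change of 0.69. The kinase Jak2 rose by 0.61 ± 0.15, the transcription factor Irf8 by 1.53 ± 0.50, the inhibitor Socs3 by 1.20 ± 0.30 and the phosphatase Ptpn2 by 0.46 ± 0.14. The second receptor chain Ifngr2 (0.24 ± 0.13) and Jak1 (0.22 ± 0.20) did not pass. Of 18 genes known to be induced by the cytokine 16 rose and 0 fell, with a median of 2.02, and many of them are also induced by type I interferon. Among them were the inhibitory ligand Cd274 (3.95 ± 0.71), the guanylate-binding protein Gbp2 (3.54 ± 0.58), the MHC class II regulator Ciita (2.22 ± 0.50) and the immunoproteasome subunit Psmb9 (2.04 ± 0.39). Ido1, which degrades tryptophan, had 2.51 ± 0.93 and did not pass (edgeR adjusted p = 0.059).

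Of 15 tested genes that lead T cells and NK cells to make the cytokine 9 rose and 0 fell, with a median of 1.48. The cytokine subunit Il12b rose by 4.85 ± 0.98, the transducer Stat4 by 2.63 ± 0.74 and the cytokine Il18 by 1.34 ± 0.33, while the T-helper 1 factor Tbx21 (1.47 ± 0.60) and the receptor chain Il12rb2 (-0.99 ± 0.47) did not pass. Of 10 partners of Ccl5 and Cxcr3 5 rose and 2 fell, where 1800 of the 20462 tested genes fell. The receptor Ccr1 (2.09 ± 0.44) and the chemokines Ccl3 (4.08 ± 0.94) and Ccl4 (3.85 ± 1.04) were among those that rose. The chemokine scavenger Ackr2 (-1.56 ± 0.33) and Dpp4 (-1.40 ± 0.25), a protease that trims these chemokines, fell, and the further CXCR3 ligand Pf4 (-0.20 ± 0.32) did not pass. Of 23 type I and type III interferon and receptor genes 19 were too low to test, with at most 1 count of Ifnb1 and 3 counts of Ifnk in any library. The type III interferon Ifnl2, named after its values were seen, had 0 to 7 counts in allogeneic isotype libraries and 0 in syngeneic ones. It had 0 to 2 counts in water libraries and 0 in anti-IL1RAP and nintedanib ones. Of the 4 tested 1 rose and 0 fell: the receptor chain Il10rb (0.59 ± 0.18, edgeR adjusted p = 0.027), named after its values were seen and lost without allogeneic isotype replicate 1 or 2 or syngeneic replicate 3 or 4. The receptor chains Ifnar1 (0.13 ± 0.16) and Ifnar2 (0.28 ± 0.30) did not pass.

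Markers of T cells, macrophages and keratinocytes were higher in the same skin, while single NK markers went both ways. Of 14 T cell markers 11 rose, among them Cd8a (6.08 ± 1.21), Cd4 (3.54 ± 0.58) and Cd3e (2.34 ± 0.69), and their sum was 114 to 270 CPM in allogeneic isotype skin, against 39.2 to 68.3 CPM in syngeneic skin. Of 12 macrophage markers 8 rose, with sums of 1116 to 2647 CPM against 440 to 870 CPM, and Adgre1 (1.43 ± 0.54) did not pass. The 9 NK markers summed to 9.38 to 19.7 CPM against 1.66 to 8.41 CPM, without overlap, and of the 3 that could be tested 2 rose and 0 fell, Klrk1 (3.08 ± 0.57) and Klrc2 (3.07 ± 0.85). The untested NK receptor Ncr1 went the other way, with 0 to 2 counts per library in allogeneic isotype skin, against 3 to 75 counts in syngeneic skin. So did the means of the untested Klrb1c (0.226 against 0.432 CPM) and Klra7 (0 against 0.127 CPM). The untested Klra8, Klra4 and Khdc1a were higher, with means of at most 0.143 CPM. Most of the NK sum in allogeneic isotype skin was Klrk1, which averaged 10.8 CPM where the sum averaged 13.7 CPM. Cells of the skin itself differed as well. Of 4 keratinocyte markers 3 rose, and their sum was 40117 to 61557 CPM in allogeneic isotype skin, against 12310 to 22179 CPM in syngeneic skin, without overlap. Of 6 fibroblast markers 1 fell, of 7 endothelial markers 2 and of 20 skeletal muscle markers 2, and 0 rose in these lists. Over all 20462 genes 1800 fell in this comparison. Summed skeletal muscle markers were 36.1, 13877, 74319 and 27857 CPM in allogeneic isotype replicates 1 to 4. In syngeneic skin they were 45526 to 70855 CPM, which overlapped. The part of these cells in the fold changes of the 9 genes was not tested. Klrk1, Klrc2, Klrb1c, Klra7, Klra8, Klra4 and Khdc1a were named after their values were seen. In whole skin, more cells of a type and more RNA per cell cannot be told apart.

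Ratios to the marker sums, chosen after the data were seen, were compared in 32 exact 2-sided permutation tests, none of which passed after adjustment. Per 1000 CPM of T cell markers Ifng averaged 16.3 ± 5.81 in allogeneic isotype and 2.09 ± 1.64 in syngeneic skin, and Ccl5 averaged 414 ± 67.1 and 46.1 ± 42.2 in the same order (SD, n = 4 each). Per 1000 CPM of macrophage markers Cxcl9 averaged 230 ± 69.7 in allogeneic isotype and 6.73 ± 2.96 in syngeneic skin. These 3 ratios did not overlap between the groups (exact permutation p = 0.0286 each, the smallest that 4 against 4 libraries can give; 0.0914 adjusted). Cxcr3 averaged 28.0 ± 10.5 per 1000 CPM of T cell markers in allogeneic isotype and 36.7 ± 20.4 in syngeneic skin, which overlapped (exact permutation p = 0.457). The marker Trbc2, which overlapped between the groups, averaged 25.8 CPM in syngeneic skin, where the T cell sum averaged 54.1 CPM. In allogeneic isotype skin Trbc2 averaged 33.0 CPM and the sum 183 CPM. Cd8a averaged 0.241 CPM in syngeneic and 16.1 CPM in allogeneic isotype skin, so these ratios depend on the markers summed. Trbc2 was named after its values were seen.

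**Figure D2:**
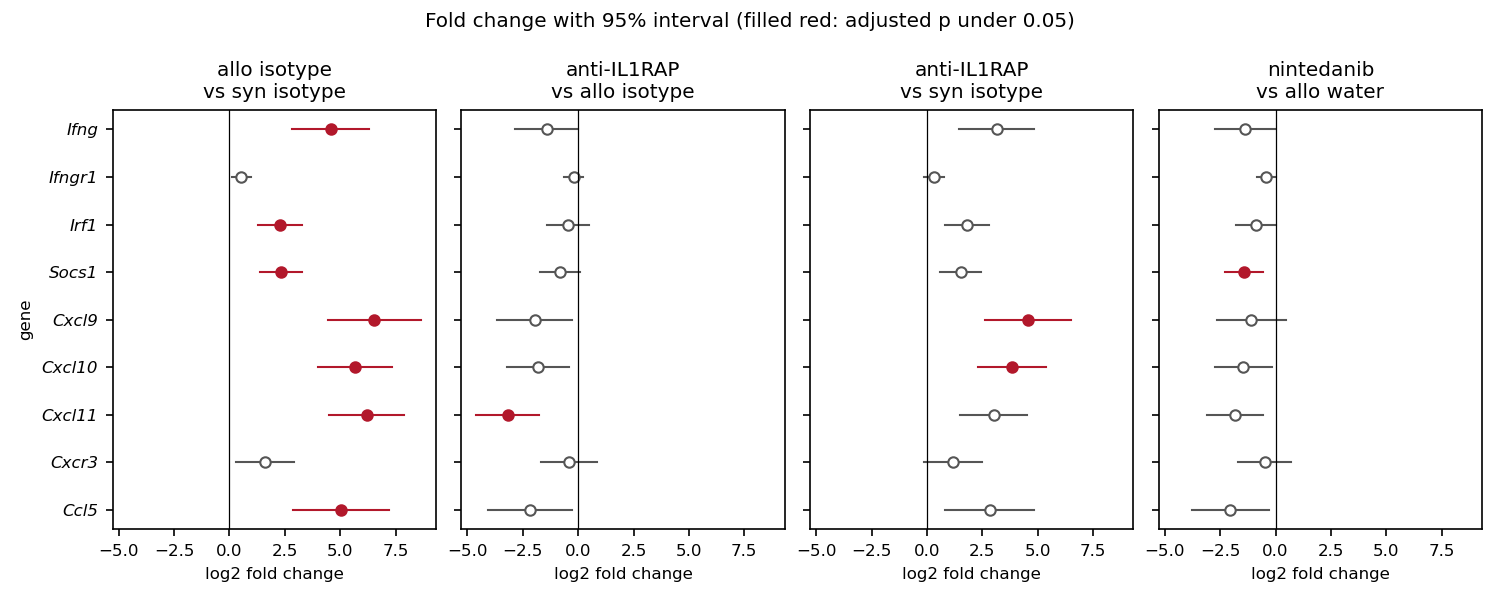
Log2 fold change of each gene (points) with its 95% interval (bars) in the 4 comparisons, filled red where edgeR's adjusted p was under 0.05. Red are 7 genes in allogeneic isotype against syngeneic skin, Cxcl11 in anti-IL1RAP against allogeneic isotype skin, Cxcl9 and Cxcl10 in anti-IL1RAP against syngeneic skin, and Socs1 in nintedanib against water.

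The second comparison asked what the antibody to IL1RAP changed in allogeneic recipients. Cxcl11 fell by 3.19 on the log2 scale (SE 0.68, edgeR adjusted p = 0.00572) and was the 1 gene of 9 to pass, where 5.19% of all genes fell. All 9 fold changes were negative, with a median of -1.43 against 0 over all genes. The groups did not overlap for 6 of the 9 genes, where 10.9% of all genes were lower without overlap. Fitted on the first run alone, Cxcl10 (edgeR adjusted p = 0.00861), Socs1 (0.0194) and Cxcl9 (0.0198) passed as well, where 1878 of all genes fell.

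Cxcl11 had 7.91, 5.50, 4.06 and 7.69 CPM in anti-IL1RAP skin, against 75.1, 61.0, 40.9 and 52.3 CPM in allogeneic isotype skin. All 4 treated libraries were far below the isotype range, and the call held in all 17 settings run, with log2 fold changes from -3.43 to -3.03. Cxcl9 had 220, 85.1, 35.0 and 83.4 CPM against 466, 469, 351 and 371 CPM (-1.97 ± 0.82, edgeR adjusted p = 0.137). Cxcl10 had 73.0, 32.3, 22.3 and 46.1 CPM against 228, 182, 91.8 and 109 CPM (-1.81 ± 0.67, edgeR adjusted p = 0.0911). Neither overlapped between the groups, and replicate 1 was the highest treated library for both. Of the summed counts of the 3 chemokines, Cxcl11 made up 2.63, 4.48, 6.62 and 5.61% in the anti-IL1RAP libraries, against 9.77, 8.57, 8.45 and 9.82% in the allogeneic isotype libraries. The shares did not overlap (exact permutation p = 0.0286, 0.0914 adjusted over the 32 ratio tests), while the shares of Cxcl9, on average 65.0% and 67.2%, did.

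Ccl5 had 40.8, 13.1, 3.11 and 10.3 CPM in anti-IL1RAP skin, against 109, 105, 48.8 and 43.2 CPM in allogeneic isotype skin (-2.19 ± 0.90, edgeR adjusted p = 0.135). Ifng had 57, 30, 4 and 13 counts (2.20, 0.949, 0.191 and 0.595 CPM) against 65, 53, 56 and 36 counts (-1.43 ± 0.68, edgeR adjusted p = 0.202). For both genes the treated libraries lay below the isotype range, replicate 1 nearest to it and replicate 3 farthest away. For Ifng the groups were barely parted. Anti-IL1RAP replicate 1 had 2.20 CPM (57 counts) and allogeneic isotype replicate 4 had 2.25 CPM (36 counts). Socs1 had 29.5, 25.7, 21.1 and 31.6 CPM in anti-IL1RAP skin, against 51.6, 53.1, 50.1 and 34.3 CPM in allogeneic isotype skin, without overlap (-0.81 ± 0.43, edgeR adjusted p = 0.261).

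The remaining members overlapped between these groups. Irf1 had 208, 138, 132 and 178 CPM in anti-IL1RAP skin, against 266, 249, 241 and 153 CPM in allogeneic isotype skin, with a log2 fold change of -0.47 ± 0.46 (edgeR adjusted p = 0.591) and a 95% interval from -1.43 to 0.49. Ifngr1 had 126, 120, 130 and 104 CPM against 116, 176, 111 and 152 CPM (-0.21 ± 0.21, edgeR adjusted p = 0.61, interval from -0.64 to 0.23). Cxcr3 had 6.56, 3.42, 2.82 and 4.03 CPM against 8.35, 9.46, 1.74 and 3.00 CPM (-0.42 ± 0.61, edgeR adjusted p = 0.745, interval from -1.69 to 0.85). For Cxcr3 all 4 treated libraries lay inside the range of the isotype libraries, and for Ifngr1 replicate 4 lay just below it.

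Of the 12 further receptor pathway genes 0 rose and 2 fell, the inhibitors Cish (-0.69 ± 0.20) and Pias1 (-0.31 ± 0.10). Of the 15 upstream genes 2 fell, Il18 (-1.28 ± 0.33) and its receptor chain Il18rap (-1.80 ± 0.56). Of the 10 partners of Ccl5 and Cxcr3 2 rose, Ackr2 (1.60 ± 0.33) and Dpp4 (0.98 ± 0.25), and 2 fell, the chemokine Ccl8 (-2.26 ± 0.34) and the receptor Ccr1 (-1.42 ± 0.43). Over all 20462 genes 1142 rose in this comparison. Ackr2 averaged 18.2 ± 2.45 CPM in anti-IL1RAP, 6.01 ± 2.65 CPM in allogeneic isotype and 17.7 ± 2.38 CPM in syngeneic skin (SD, n = 4 each). None of the 18 induced genes passed with edgeR, their median was -0.66, DESeq2 called 2 of them, and a fit of the first run alone called 8 lower and 1 higher. With 1 library left out, 0 to 2 receptor pathway genes, 0 to 2 upstream genes and 2 to 4 partners passed. The receptor pathway count was 0 without allogeneic isotype replicate 2 or 4 or anti-IL1RAP replicate 1 or 3, the upstream count was 0 without allogeneic isotype replicate 4, and the partner count was 2 without allogeneic isotype replicate 2 or anti-IL1RAP replicate 3 or 4. Cish, Pias1, Il18rap and Ccl8 were named after their values were seen.

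Summed T cell markers were 77.9 to 191 CPM in anti-IL1RAP skin, against 114 to 270 CPM in allogeneic isotype skin, and summed macrophage markers 967 to 2081 CPM against 1116 to 2647 CPM. Both sums overlapped and none of these markers passed, nor did any of the 3 tested NK markers. Keratinocyte markers summed to 14992 to 23335 CPM in anti-IL1RAP skin, against 40117 to 61557 CPM in allogeneic isotype skin, without overlap, and 2 of the 4 fell. Of 6 fibroblast markers 1 rose, where 1142 of the 20462 tested genes rose. The part of these cells in the fold changes was not tested. Per 1000 CPM of T cell markers Ccl5 averaged 124 ± 71.3 in anti-IL1RAP and 414 ± 67.1 in allogeneic isotype skin, and per 1000 CPM of macrophage markers Cxcl9 averaged 66.4 ± 28.8 and 230 ± 69.7 in the same order (SD, n = 4 each). Neither ratio overlapped (exact permutation p = 0.0286 each, 0.0914 adjusted). For Ifng per 1000 CPM of T cell markers the means were 7.44 ± 3.75 and 16.3 ± 5.81 (exact permutation p = 0.0571).

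Set against syngeneic skin, anti-IL1RAP skin was higher in Cxcl9 (4.57 ± 0.92, edgeR adjusted p = 0.0247) and Cxcl10 (3.85 ± 0.74, edgeR adjusted p = 0.0173). These are 2 of 9 genes, where 0.777% of all genes rose, and all 9 fold changes were positive, with a median of 2.83 against 0.03 over all genes. For Irf1, Socs1, Cxcl9, Cxcl10 and Cxcl11 the groups did not overlap, as for 10.8% of all genes in this direction. Cxcl11 (3.01 ± 0.72, edgeR adjusted p = 0.0585), Ifng (3.14 ± 0.82, 0.0844) and Irf1 (1.81 ± 0.47, 0.0844) did not pass. Both calls were lost without any 1 of the 4 syngeneic libraries or anti-IL1RAP replicate 1 (edgeR adjusted p from 0.0528 to 0.122), and Ifng passed without anti-IL1RAP replicate 3 (0.0487). In a fit of the first run alone Irf1, Socs1 and Cxcl11 passed too, where 422 of all genes rose. Summed T cell markers were 77.9 to 191 CPM in anti-IL1RAP skin, against 39.2 to 68.3 CPM in syngeneic skin, and summed macrophage markers 967 to 2081 CPM against 440 to 870 CPM. Neither sum overlapped, 1 of 14 and 0 of 12 markers passed, and their part in the fold changes was not tested. Summed skeletal muscle markers were lower in anti-IL1RAP skin, at 5297 to 31280 CPM against 45526 to 70855 CPM in syngeneic skin. They did not overlap either, and 0 of 20 passed. DESeq2 called 7 genes, all but Ifngr1 and Cxcr3, where it called 513 of all genes higher.

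In order of mean level, anti-IL1RAP skin lay between allogeneic isotype skin, the highest, and syngeneic skin for all 9 genes. All 3 groups stood clear of each other for Socs1, Cxcl9, Cxcl10 and Cxcl11. For Ifng and Ccl5 anti-IL1RAP skin overlapped syngeneic skin alone, for Irf1 allogeneic isotype skin alone, and for Ifngr1 and Cxcr3 both. Of the 12 receptor pathway genes 2 were higher than in syngeneic skin, among them the interferon transducer Irf9 (1.13 ± 0.25). Of the 18 induced genes Gbp2 (2.65 ± 0.55), the GTPase Igtp (3.29 ± 0.67) and Psmb9 (1.68 ± 0.38) were. With 1 library left out, these counts were 0 to 1 of the receptor pathway and 0 to 3 of the induced genes. The induced count was 0 without any 1 syngeneic library or anti-IL1RAP replicate 1, 2 or 4. Irf9 and Igtp were named after their values were seen.

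The third comparison asked what nintedanib changed in allogeneic recipients. Socs1 fell by 1.41 on the log2 scale (SE 0.41, edgeR adjusted p = 0.0363) and was the 1 gene of 9 to pass, where 3.76% of all genes fell. All 9 fold changes were negative, with a median of -1.37 against 0 over all genes, but 0 of the 9 genes were free of overlap, where 3.2% of all genes were lower without overlap. Replicate 4 was the highest nintedanib library for all 9 genes, within the water range for 8 of them and above it for Cxcr3. Replicates 1 and 3 lay below every water library for all 9 genes.

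Socs1 had 4.18, 5.73, 14.1, 31.5 and 19.4 CPM in nintedanib skin, against 30.0, 55.0, 43.3 and 31.4 CPM in water skin. Of the nintedanib libraries only replicate 4 reached the water range. The call was lost in a fit of the second run alone (edgeR adjusted p = 0.195) and without nintedanib replicate 1, 2 or 3 or water replicate 2, 3 or 4 (0.0526 to 0.11). A note on sequencing in 2 lanes is carried by 3 nintedanib and 2 water libraries. Socs1 had -1.70 ± 0.53 (edgeR adjusted p = 0.467) within these and -1.06 ± 0.95 (0.801) within the others.

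Cxcl9 had 12.6, 56.0, 19.3, 405 and 148 CPM in nintedanib skin, against 109, 437, 242 and 314 CPM in water skin (-1.10 ± 0.75, edgeR adjusted p = 0.389). Cxcl10 had 4.68, 17.6, 14.0, 114 and 39.1 CPM against 57.1, 154, 118 and 86.5 CPM (-1.46 ± 0.61, edgeR adjusted p = 0.14). For both, replicates 1, 2 and 3 were below all water libraries and replicate 4 among them. Cxcl11 had 1.78, 1.43, 1.52, 16.6 and 15.1 CPM against 10.9, 36.0, 28.6 and 29.1 CPM (-1.84 ± 0.60, edgeR adjusted p = 0.0599). Ccl5 had 1.39, 4.24, 2.96, 43.7 and 14.6 CPM against 33.0, 92.8, 63.9 and 30.9 CPM (-2.05 ± 0.83, edgeR adjusted p = 0.127). For Cxcl11 replicates 4 and 5 reached the water range, and for Ccl5 replicate 4 did.

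Ifng had 3, 18, 5, 37 and 17 counts (0.167, 0.954, 0.231, 1.97 and 0.964 CPM) in nintedanib skin, against 20, 71, 30 and 38 counts (1.22, 3.77, 1.68 and 2.17 CPM) in water skin (-1.37 ± 0.65, edgeR adjusted p = 0.192). Irf1 had 22.3, 86.7, 41.2, 226 and 99.7 CPM against 145, 250, 191 and 123 CPM (-0.90 ± 0.43, edgeR adjusted p = 0.2). Replicate 4 was again the 1 nintedanib library inside the water range for both. Ifngr1 had 54.3, 105, 65.9, 120 and 89.2 CPM against 98.8, 137, 105 and 123 CPM (-0.41 ± 0.20, edgeR adjusted p = 0.193). Cxcr3 had 1.00, 2.23, 1.52, 8.90 and 4.99 CPM against 2.99, 5.04, 7.07 and 5.93 CPM (-0.50 ± 0.58, edgeR adjusted p = 0.686, 95% interval from -1.71 to 0.71). For Ifngr1 replicates 2 and 4 and for Cxcr3 replicates 4 and 5 reached the water range or passed it. Over the 9 genes, log2 fold changes ran from -3.13 (Ccl5) to -0.43 (Ifngr1) within the libraries with the lane note and from -1.64 (Cxcl11) to -0.34 (Irf1) within those without it, and 0 genes passed in either.

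The calls depended on single libraries and on the fit. Without nintedanib replicate 4, the highest for all 9 genes, 6 genes passed, Irf1, Socs1, Cxcl9, Cxcl10, Cxcl11 and Ccl5. Taking out that library lowers the treated mean of all 9 genes, so these calls add no support for a fall. Over all genes 1185 fell in that setting, against 769 with every library. Without replicate 5 Cxcl11 passed beside Socs1 (edgeR adjusted p = 0.0236), and 1148 of all genes fell. Without replicates 1 and 3, which stood apart in hair follicle markers, 0 genes passed, and 698 of all genes fell. Without replicates 2 and 4, which held Y-linked counts, 7 genes passed, all but Cxcl9 and Cxcr3, and 1162 of all genes fell. As replicate 4 is left out here too, Y-linked counts and the high level of that library cannot be told apart. These last settings were chosen after the data were seen. DESeq2 called Socs1 and Cxcl11, and 1237 of all genes lower.

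**Figure D3:**
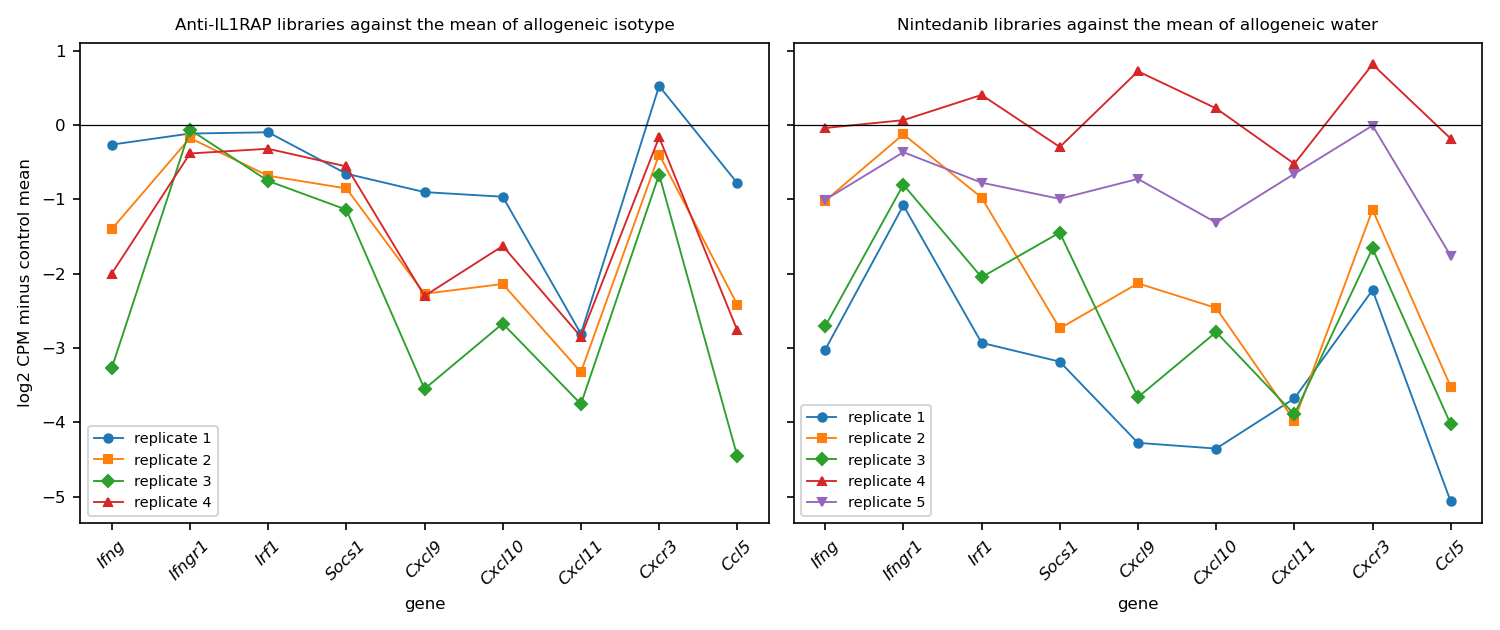
Log2 level of each gene in single treated libraries minus the mean of the matching allogeneic control; lines only join the genes of 1 library. Anti-IL1RAP libraries (left) have Cxcl11 between -3.75 and -2.81 in all 4; nintedanib libraries (right) are spread apart, from -4.28 in replicate 1 to 0.72 in replicate 4 for Cxcl9.

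Summed T cell markers were 25.7, 52.1, 41.3, 179 and 99.5 CPM in nintedanib replicates 1 to 5, against 82.4, 150, 159 and 146 CPM in water skin. Summed macrophage markers were 370, 712, 539, 1741 and 1280 CPM against 1221, 2169, 2464 and 1535 CPM. Replicates 1, 2 and 3 were below every water library in both sums and replicate 4 was the highest nintedanib library, as for the 9 genes. Of these markers 0 of 14 and 1 of 12 fell. Of 4 keratinocyte markers 2 fell, with sums of 5845 to 37467 CPM in nintedanib skin against 31991 to 74086 CPM in water skin, which overlapped. Of 17 hair follicle markers 10 rose, where 1137 of the 20462 tested genes rose, and only replicates 1 and 3 were high in their sum. The part of these cells in the fold changes was not tested. Per 1000 CPM of T cell markers Ccl5 averaged 119 ± 77.7 in nintedanib (SD, n = 5) and 408 ± 166 in water skin (SD, n = 4; exact permutation p = 0.0318, 0.0924 adjusted over the 32 tests). Ifng averaged 10.2 ± 5.05 and 16.3 ± 6.15 in the same order (exact permutation p = 0.143), and Cxcr3 43.7 ± 6.06 and 38.7 ± 4.84 (exact permutation p = 0.222). Per 1000 CPM of macrophage markers Cxcl9 averaged 99.4 ± 81.8 in nintedanib and 148 ± 63.3 in water skin (exact permutation p = 0.349), and Cxcl10 31.9 ± 19.8 and 55.5 ± 11.2 (exact permutation p = 0.0794).

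Of the 12 receptor pathway genes 2 fell under nintedanib, Socs3 (-1.82 ± 0.28) and Cish (-0.89 ± 0.18). Of the 18 induced genes 3 fell, the adhesion molecule Icam1 (-1.12 ± 0.34), the MHC class I regulator Nlrc5 (-0.88 ± 0.25) and the nitric oxide synthase Nos2 (-3.17 ± 0.75). This count was 13 without nintedanib replicate 4, 12 without replicates 2 and 4, 1 without replicates 1 and 3, and 0 in a fit of the second run alone. Of the 15 upstream genes Il27 fell (-2.09 ± 0.57), and of the 10 partners Dpp4 rose (0.82 ± 0.23) and Ccl8 fell (-2.62 ± 0.32). The upstream call was lost without nintedanib replicate 1 or 3 or water replicate 2, 3 or 4, and the count of induced genes was 0 without water replicate 2. Cish, Icam1, Nlrc5, Nos2, Il27 and Ccl8 were named after their values were seen.

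The fold change under the antibody minus that under nintedanib, each against its own control, tested whether the treatments differed. None of the 9 genes passed with edgeR or with DESeq2, and 0 of them had an unadjusted p under 0.05. Over all genes edgeR called 0%, with 2495 genes at an unadjusted p under 0.05, and DESeq2 called 364 genes. Cxcl11 had the largest difference of the 9, -1.34 ± 0.87, with a 95% interval from -3.17 to 0.49. The interval ran from -3.15 to 1.42 for Cxcl9 and from -2.65 to 2.36 for Ccl5. Intervals this wide do not show that the treatments act alike.

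**Figure D4:**
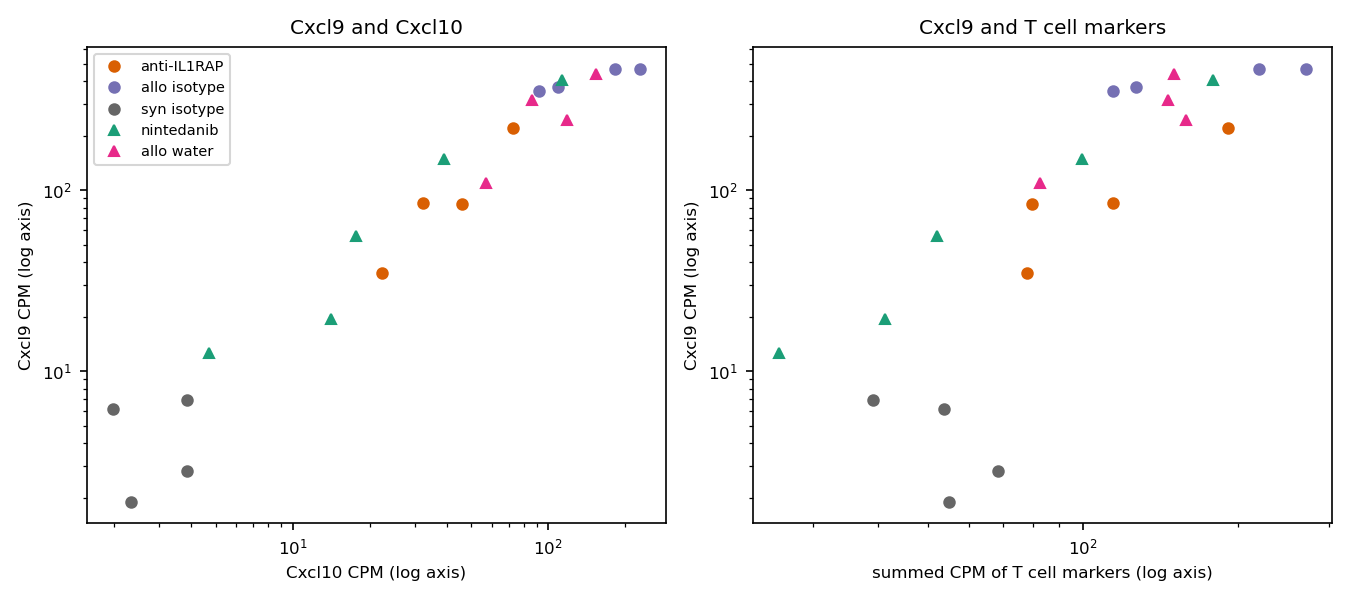
Cxcl9 against Cxcl10 (left) and against the summed level of 14 T cell markers (right) in every library (CPM, log axes); circles are libraries of the first counting run and triangles those of the second. Libraries high in Cxcl9 are also high in Cxcl10, and nintedanib replicate 4, at 405 CPM of Cxcl9 and 179 CPM of T cell markers, lies beside the water libraries.

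The members' levels went together across libraries. Pearson's r of log2 CPM between Cxcl9 and Cxcl10 was 0.978 over the 12 libraries of the first run and 0.966 over the 9 of the second, and between Ifng and Ccl5 0.983 and 0.927. Between Ifng and Ifngr1 r was 0.638 and 0.977. The points of the first run fall into their groups, which r partly restates. Among 14592 other genes, those most like Ifng over the first run were Ccl3, Rbm3os, Pdcd1, Pla2g7 and Ctss (r from 0.963 to 0.982), and those most like Ccl5 were Pla2g7, Ada, Ccl3, Ctss and Il21r (0.976 to 0.987). Most like Cxcl9 were Oas3, Ubd, Stat2, Olfr56 and Oas1a (0.986 to 0.991), and most like Cxcl10 were H2-D1, Adar, Stat2, Oas1b and Tapbp (0.983 to 0.989). Over the second run r was 0.756 or higher for all of these but Rbm3os (-0.493) and Olfr56 (0.305).

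The libraries do not keep strand, and in an older GENCODE annotation some members share exon bases with other genes. Ifng shares 336 bases with Gm49751, which had 1 to 28 counts in anti-IL1RAP libraries, 9 to 31 in those of allogeneic isotype skin and 0 to 4 in those of syngeneic skin. Irf1 shares 135 with Gm17334, which had 580 to 1267 counts in anti-IL1RAP libraries, 511 to 1260 in those of allogeneic isotype skin, 91 to 351 in those of syngeneic skin and 0 in the second run. Cxcl10 shares 133 with Art3, which had 2362 to 3031 counts in anti-IL1RAP libraries, 1598 to 3875 in those of allogeneic isotype skin, 1758 to 4459 in those of syngeneic skin, and 568 to 3912 in nintedanib against 866 to 2023 in water skin. Cxcl11 shares 1582 with Gm2673, which had at most 17 counts in any library. Reads from such pairs cannot be told apart. Cxcl11 is annotated there as a polymorphic pseudogene, a class for genes disrupted in the reference strain, and its allele in the strains used is not known here.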

How the data were processed

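The authors deposited raw counts per gene symbol for each library of poly-A RNA from mouse skin, prepared without strand marking, per the labels' protocols. FastQC, Trimmomatic, STAR, featureCounts and the build GRCm39 are named in the submitters' processing notes, while no version, setting or annotation is given there. Of the symbols, 21830 had counts in both counting runs, 12094 in the first only and 6185 in the second only, so the runs were not set against each other.

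From these counts edgeR 4.0.16 (R 4.3.3) was run on all 21 libraries in 1 fit, with filterByExpr at a minimum count of 10, TMM scaling and the quasi-likelihood test, and p-values were adjusted by the Benjamini-Hochberg method over 20462 genes. DESeq2 1.42.0 was an alternative. The scripts were tested on simulated data. Likeness used log2 CPM with a prior count of 2, among genes averaging at least 1 CPM whose names are not predicted, Riken or clone names. Ratio tests were exact 2-sided permutation tests with scipy 1.17.1.

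Named beside the 9 members were pathway genes by role, the 5 genes most like Ifng, Cxcl9, Cxcl10 and Ccl5, and those said in the text to have been named afterwards. Some genes of these lists are not reported here. Members and lists were chosen with earlier results of these data known. The labels do not say that each library is a separate mouse, so p-values measure the spread between these libraries, which may be technical.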

Additional observations from a re-analysis of the deposited data

Results flagged for a closer look

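Socs1 in allogeneic isotype replicate 4 stood apart from the other libraries of its group, at 34.3 CPM against 50.1 CPM in the nearest of them. The gap was 0.839 of the range of the group's 4 libraries. Across the 45 combinations of a gene and a group that were examined it was the only one to do so. Chance gives about 1 in 20 such combinations, so 1 among 45 is no more than chance gives.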

How the results depend on the processing

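No fold change of the 9 genes that passed changed sign. The number of the 9 genes that passed, 7 in allogeneic isotype against syngeneic skin, was 7 to 9 when 1 library was left out. Over all genes 4621 passed in that comparison, and 3580 to 4953 did without 1 library. For anti-IL1RAP against allogeneic isotype skin 1 gene passed, as it did without any 1 library. The count was 4 with the groups compared alone, 4 with the first counting run alone and 2 with DESeq2. For anti-IL1RAP against syngeneic skin 2 genes passed, 0 to 3 without 1 library, 5 with the groups compared alone, 5 with the first run alone and 7 with DESeq2. For nintedanib against water 1 gene passed, and 0 to 6 did without 1 library. The count was 0 with the groups compared alone, 0 with the second run alone, 0 within the libraries with and 0 within those without the lane note, 2 with the symbols counted in both runs, and 2 with DESeq2. It was 0 without nintedanib replicates 1 and 3 and 7 without replicates 2 and 4, both chosen after the data were seen. Where the cause of such a shift is not the smaller number of libraries, it was not tested. For the difference between the treatments the count was 0 to 0 without 1 library. Replicate numbers did not pair the samples: correlations of same-numbered libraries ran from -0.354 to 0.347. With a replicate block by title number the count was 0 for anti-IL1RAP against syngeneic skin and 2 for nintedanib against water, and with a replicate block by description number it was 0 and 2; the block changed no count of the 9 genes elsewhere. Over all genes, 2204 passed in anti-IL1RAP against allogeneic isotype skin, 3664 with the first run alone and 1284 to 2168 without 1 library. In anti-IL1RAP against syngeneic skin 166 passed (159 higher, 7 lower), 2131 with the groups compared alone (1057 higher, 1074 lower), 505 with the first run alone, 674 with DESeq2, 106 with the symbols counted in both runs, 108 where the fit held a term for muscle RNA, 98 and 60 with the replicate blocks, and 31 to 152 without 1 library. In nintedanib against water 1906 passed, 1190 without a filter on low counts, 94 with the groups compared or the second run alone, 0 within libraries with the lane note or without it, 1225 without replicates 1 and 3, 3197 without replicates 2 and 4, 3046 with DESeq2, and 782 to 2794 without 1 library. For the difference between the treatments 0 passed, 364 with DESeq2 and 0 to 7 without 1 library. In allogeneic isotype against syngeneic skin the 9 receptor pathway and 9 upstream genes that passed were 6 to 8 and 6 to 9 without 1 library. At the few counts of Ifng, and of Cxcl11 in syngeneic skin, depth limits the precision.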
